A study of Mus musculus with 6 samples.

Results

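The interferon regulatory factors (IRFs) are a family of transcription factors with a shared DNA-binding domain at the N terminus. Rows were chosen by gene symbol, Irf followed by a single digit from 1 to 9, and 7 of the 13706 genes in the deposited table matched: Irf1, Irf2, Irf3, Irf5, Irf7, Irf8 and Irf9. All 7 passed the filter on low values.

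Levels were measured in 6 libraries of messenger RNA from primary mouse dermal fibroblast cultures, 2 libraries per group. KO + H-151 cells carried R26-CAG-CreER, a tamoxifen-dependent Cre at the ROSA26 locus, together with Yap1 fl/fl and Wwtr1 fl/fl, and received 1 µM H-151, which blocks STING. KO cells carried the same alleles and received no H-151. Control cells carried Yap1 fl/fl and Wwtr1 fl/fl without Cre. All cells, control cells included, spent 72 hr in 1 µM 4-hydroxytamoxifen. CAG is a promoter active in most cell types, so Cre was not restricted to fibroblasts. Loss of the genes and presence of active Cre cannot be told apart, because control cells lack Cre. No group of control cells with H-151 is among the samples. Neither the age nor the number of the mice is given in the labels. Whether paired libraries of 1 group are separate cultures is not stated either, and the p-values therefore reflect library-to-library spread that may be technical.

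IRFs bind the interferon-stimulated response element (ISRE), a repeat of GAAA spaced by a few bases. When cGAS detects DNA in the cytosol, STING recruits the kinase TBK1, which phosphorylates the constitutively made IRF3. Phosphorylated IRF3 enters the nucleus and switches on the gene of interferon beta, Ifnb1. Secreted interferon then acts through its receptor and JAK kinases on the complex ISGF3, of which STAT2 and IRF9 are subunits. ISGF3 induces antiviral genes and also Irf7, whose product amplifies interferon production. IRF1 is an activator induced by interferon gamma, and IRF2 was described as its competitor at the same DNA sites. IRF5 acts downstream of Toll-like receptors and MyD88. IRF8 directs the development of macrophages and dendritic cells and partners there with the ETS factor PU.1, encoded by Spi1.

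Reads in the listed genes ran from 12444986 to 15308100 per library, which leaves out reads outside those genes. A level is given as scaled CPM, read counts scaled to an effective library size, and 1 read was worth 0.0625 to 0.0871 scaled CPM. Each transcript gives a tag near its end in this method, so levels are not divided by transcript length. Changes are differences of log2(scaled CPM + 1) ± SE, tested with limma on 13648 genes with Benjamini-Hochberg adjustment and a threshold of 0.05. This scale understates the change of low genes. Wwtr1, the targeted gene of TAZ, had 3.07 and 4.00 scaled CPM in KO + H-151, 4.79 and 5.03 in KO and 213 and 218 in control. Yap1 had 45.3 and 42.4 scaled CPM in KO + H-151, 66.4 and 68.3 in KO and 122 and 128 in control. Which exons are floxed is not stated in the labels, and a tag from a region that was not deleted checks nothing. All 8 fibroblast markers were in the table. Col1a2 was the highest, at 10473 and 9749 scaled CPM in KO + H-151, 16106 and 15874 in KO and 12677 and 13328 in control. In KO against control, 3 of the 8 rose and 1 (Pdgfra) fell, against 18.2% and 14.2% of all genes tested. Pdgfra had 144 and 140 scaled CPM in KO + H-151, 65.8 and 70.3 in KO and 157 and 155 in control.

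Promoter sequences are shown because interferon signalling acts on promoters through short known motifs. RefSeq windows of 300 bases, 250 before to 50 after an annotated start (GRCm38.p6), were available for all 7 members as 10 windows. They were searched on both strands for GAAANNGAAA, the core of the ISRE, and TTCNNNGAA, the core of the GAS element, a site of the response to interferon gamma. GAAANNGAAA occurred in 3.44% of all 32851 windows and TTCNNNGAA in 8.3%. Of the 10 windows, 1 held GAAANNGAAA (Irf2) and 3 held TTCNNNGAA (Irf1, Irf2 and Irf8). The 3 windows with a match are shown in lower case with the matches in capitals.
Irf1 promoter, chr11:53769764-53770063, plus strand: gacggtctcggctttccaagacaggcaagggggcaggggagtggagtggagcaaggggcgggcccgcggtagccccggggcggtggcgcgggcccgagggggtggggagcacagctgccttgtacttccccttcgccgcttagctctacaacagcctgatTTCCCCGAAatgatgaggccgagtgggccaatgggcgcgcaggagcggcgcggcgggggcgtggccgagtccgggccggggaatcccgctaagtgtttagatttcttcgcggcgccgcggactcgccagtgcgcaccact
Irf2 promoter, chr8:46739495-46739794, plus strand: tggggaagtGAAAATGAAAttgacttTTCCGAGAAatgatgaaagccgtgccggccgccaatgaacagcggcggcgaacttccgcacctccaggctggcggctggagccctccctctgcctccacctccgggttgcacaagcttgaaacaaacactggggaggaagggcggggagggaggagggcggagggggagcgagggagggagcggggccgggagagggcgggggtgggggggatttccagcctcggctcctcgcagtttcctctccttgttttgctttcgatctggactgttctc
Irf8 promoter, chr8:120736108-120736407, plus strand: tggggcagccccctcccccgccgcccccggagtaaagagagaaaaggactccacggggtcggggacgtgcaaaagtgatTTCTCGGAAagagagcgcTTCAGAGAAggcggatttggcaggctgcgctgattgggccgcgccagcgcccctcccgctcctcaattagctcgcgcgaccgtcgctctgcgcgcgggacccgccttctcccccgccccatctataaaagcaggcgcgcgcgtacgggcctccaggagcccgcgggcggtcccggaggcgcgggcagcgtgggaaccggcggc

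The Irf1 match TTCCCCGAA lay at bases -90 to -82 from the annotated start. In Irf2, GAAAATGAAA lay at -241 to -232 and TTCCGAGAA at -224 to -216, with no overlap between them. Irf8 held 2 matches to TTCNNNGAA, TTCTCGGAA at -171 to -163 and TTCAGAGAA at -153 to -145. The windows of Irf3, Irf5, Irf7 and Irf9, and the other windows of Irf1 and Irf8, did not hold these letters. A match is a description of the sequence and no evidence of binding.

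The comparison of KO with control asks which genes change when YAP and TAZ are lost. Of the 7 Irf genes, 5 rose in KO and 0 fell, against 18.2% of all 13648 genes tested that rose, 14.2% that fell and 32.4% that did either. Irf1, Irf7, Irf2, Irf5 and Irf9 rose, by 1.57 to 4.88 on the log2 scale. Irf3, the family member that STING signalling activates, and the myeloid factor Irf8 did not pass the test. The median log2 change was 2.33 over the 7 members and -0.01 over all genes tested. Summed over the 7 members, the level was 1934 and 1869 scaled CPM in KO libraries, against 246 and 249 scaled CPM in control libraries.

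Irf1 (chromosome 11, 53770014 to 53778374, plus strand, GRCm38) had 991 and 958 scaled CPM in KO libraries, against 32.9 and 31.3 scaled CPM in control libraries. Both KO libraries lay far above both control libraries. In this comparison the groups did not overlap for 66.9% of all genes tested. The means were 974 ± 23.5 and 32.1 ± 1.15 scaled CPM (SD, n = 2 each), a ratio of 30.4. The log2 change was 4.88 ± 0.08 (adjusted p = 6.79e-17), the 39th largest rise of all genes tested. Irf1 took 51.2% and 51.3% of the family's summed level in the KO libraries and 13.4% and 12.5% in the control libraries. These are shares of tags, which can be captured with unequal efficiency from different transcripts.

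Irf2 (chromosome 8, 46739732 to 46847458, plus strand), whose product binds the same sites as IRF1, had 437 and 397 scaled CPM in KO libraries, against 75.2 and 77.04 in control libraries. Its means of 417 ± 28.4 in KO and 76.1 ± 1.30 in control gave a ratio of 5.48 and a log2 change of 2.44 ± 0.07 (adjusted p = 1.01e-13). The activator and its competitor thus rose together, Irf1 by the larger factor. Irf7 (chromosome 7, 141262706 to 141266481, minus strand), the amplifier of interferon production, stood at 186 and 193 scaled CPM in KO libraries and at 10.3 and 9.44 in control libraries. Its mean level in KO was 19.2 times that in control.

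Irf9 (chromosome 14, 55603571 to 55610030, plus strand), the DNA-binding subunit of ISGF3, had 199.6 and 201 scaled CPM in KO libraries, against 66.4 and 67.5 in control libraries. This was a ratio of 2.995 and a log2 change of 1.57 ± 0.07 (adjusted p = 4.47e-11). Of the 5 members that rose, Irf9 had the smallest change. Its KO libraries lay apart from the control libraries, as they did for 66.9% of all genes tested. Irf5 (chromosome 6, 29526625 to 29541871, plus strand), a factor of Toll-like receptor signalling, had 72.2 and 74.01 scaled CPM in KO libraries, against 11.96 and 15.6 in control libraries. The log2 change of Irf5 was 2.33 ± 0.12 (adjusted p = 1.94e-10).

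Irf3 (chromosome 7, 44997648 to 45002848, plus strand) had 40.8 and 37.2 scaled CPM in KO libraries, against 41.02 and 40.1 in control libraries. The difference was -0.06 ± 0.09, with a 95% interval of -0.26 to 0.14 (adjusted p = 0.691), and the groups overlapped. The KO level of Irf3 was measured from 906 reads and the control level from 1133 reads. Irf8 (chromosome 8, 120736358 to 120756694, plus strand) had 7.14 and 8.01 scaled CPM in KO libraries, against 8.26 and 8.36 in control libraries. Its difference was -0.12 ± 0.14, with a 95% interval of -0.43 to 0.18 (adjusted p = 0.564). Groups of 2 libraries did not overlap for 66.9% of all genes in this comparison, so the separation of the Irf8 values is not a result by itself.

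**Figure D1:**
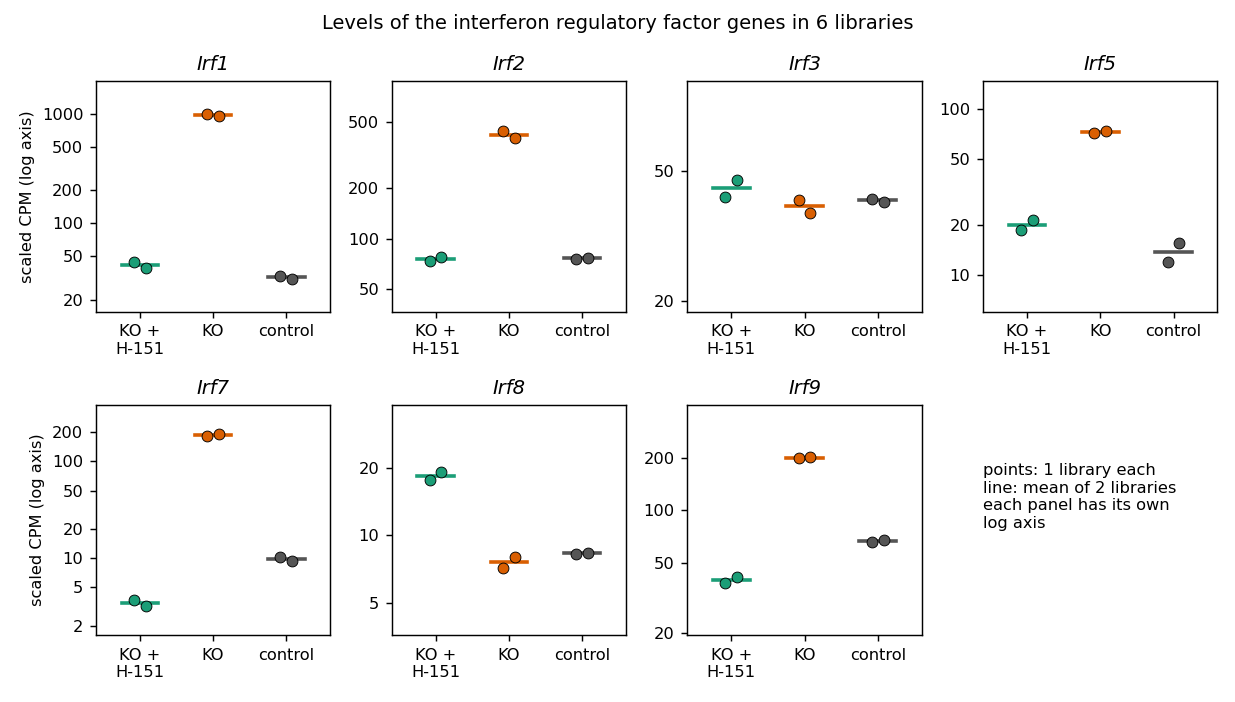
Level of each Irf gene in scaled CPM (log axis, its own range in each panel) in the 3 groups, with 1 point per library and a line at the mean of 2 libraries. Irf1, Irf2, Irf5, Irf7 and Irf9 are highest in KO, Irf8 is highest in KO + H-151 at 17.8 and 19.2, and Irf3 stays between 37.2 and 46.8.

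Genes on the route from DNA and RNA sensors to IRF3 were examined as a list of 18. The list also holds Myd88, Irak1 and Traf6, genes of Toll-like receptor signalling, so its counts are not those of the IRF3 route alone. Of these, Myd88 rose in KO (2.27 ± 0.08), and Irak1 and Traf6 did not pass. In KO, 12 of the 18 rose and 2 fell, with a median log2 change of 0.98. Of all genes tested, 18.2% rose and 14.2% fell. Ifih1, which encodes the RNA sensor MDA5, had 754 and 698 scaled CPM in KO, against 15.3 and 14.9 in control. Tlr3, a receptor for double-stranded RNA, had 167 and 175 scaled CPM in KO, against 13.3 and 11.2 in control, and Ddx58, which encodes the RNA sensor RIG-I, rose by 2.77 ± 0.08. The DNA sensor Cgas rose by 2.09 ± 0.14 and its partner Sting1 by 0.99 ± 0.10 (adjusted p = 4.42e-09 and 8.14e-07). Tbk1, the kinase of IRF3, had 51.5 and 54.08 scaled CPM in KO, against 23.9 and 28.97 in control (0.98 ± 0.11, adjusted p = 3.31e-06). The related kinase Ikbke had 11.3 and 16.01 scaled CPM in KO, against 9.90 and 8.72 in control (0.49 ± 0.19, adjusted p = 0.0639), and did not pass. The 2 genes that fell were Ticam1, the adaptor of Toll-like receptor 3, and Tbkbp1, a TBK1-binding protein, named after their values were seen.

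Stat2, a partner of IRF9 in ISGF3, rose as well. It had 419 and 413 scaled CPM in KO, against 45.9 and 54.1 in control (3.04 ± 0.08, adjusted p = 3.45e-14), beside a change of 1.57 ± 0.07 for Irf9. In the list of 11 ISGF3 partners, interferon receptors and Ifnb1, 6 rose and 0 fell, with a median of 0.48. The shares over all genes tested were 18.2% and 14.2%. The kinase gene Jak2 rose by 1.72 ± 0.08 and Stat3, the most abundant of the list, by 0.48 ± 0.07. Ifnb1 had 65 reads in the 2 KO libraries and 0 in the 2 control libraries.

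Among 15 corepressors and brakes of IRF signalling, 9 rose and 2 fell in KO, with a median of 0.49. Over all genes tested, 18.2% rose and 14.2% fell, so the count that fell is near the share of all genes. Usp18, which blocks the interferon receptor, had 365 and 389 scaled CPM in KO, against 7.19 and 8.50 in control. Socs1, an inhibitor of JAK kinases, had 194 and 200.1 scaled CPM in KO, against 7.69 and 10.2 in control, and Trim21, a ubiquitin ligase that targets IRFs, rose by 4.28 ± 0.20. The IRF2-binding corepressors did not move in 1 direction. Irf2bpl rose by 0.70 ± 0.07 (adjusted p = 5.34e-07), whereas Irf2bp1 had a change of -0.35 ± 0.09 (adjusted p = 0.00929) and Irf2bp2 of -0.44 ± 0.09 (adjusted p = 0.0018).

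Genes that IRFs are known to induce were counted in 2 lists. All 14 targets of IRF3 and ISGF3 rose in KO, against 18.2% of all genes tested, with a median log2 change of 6.58. Ifit3, an antiviral protein, rose by 6.23 ± 0.08, Isg15, a ubiquitin-like modifier, by 5.20 ± 0.10, Ifit2 by 5.84 ± 0.11, and Ifit1, the most abundant, by 7.27 ± 0.16. Of 15 IRF1 targets, 14 were in the table and all 14 rose, with a median of 3.31. The chemokine Cxcl9 rose by 7.84 ± 0.14, the immunity-related GTPase Irgm1 by 4.69 ± 0.12, the peptide transporter Tap1 by 3.14 ± 0.09 and the MHC class I light chain B2m by 0.89 ± 0.09. Ifit, Irgm and Gbp genes have close relatives that can share reads, so the split between such genes is uncertain. Socs1 stands in the list of brakes and in the IRF1 list, and Usp18 in the list of brakes and in the ISGF3 list.

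**Figure D2:**
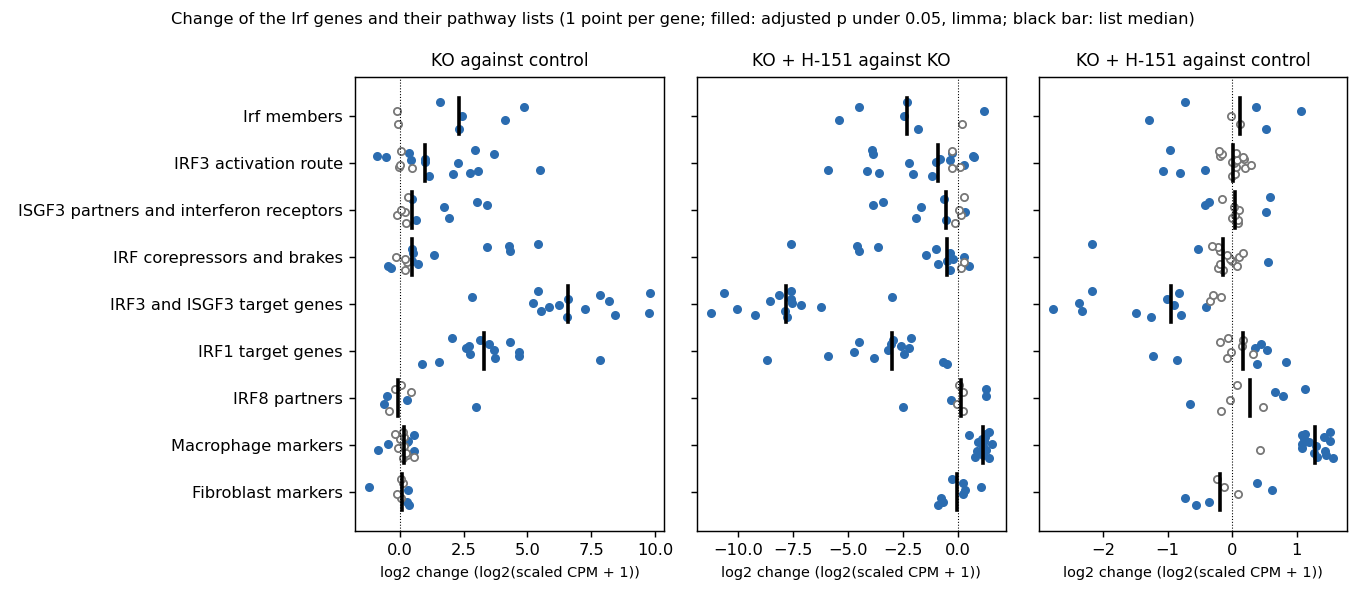
Log2 change of every gene of the Irf family and of 8 gene lists in the 3 comparisons, with 1 point per gene, filled where the adjusted p is under 0.05, and a black bar at the list median. In KO against control the medians are 2.33 for the Irf genes, 6.58 for IRF3 and ISGF3 targets and 3.31 for IRF1 targets, and 0.17 for macrophage markers.

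Setting KO + H-151 beside KO asks how STING inhibition alters the KO cells. This comparison shares the KO libraries with the comparison above. With H-151, 5 of the 7 Irf genes fell and 1 rose, against 21.4% of all genes tested that fell, 19.4% that rose and 40.8% that did either. The members that fell were Irf7, Irf1, Irf2, Irf9 and Irf5. Irf8 rose, and Irf3 did not pass the test. The median log2 change was -2.30 over the 7 members and 0.02 over all genes tested.

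Irf7 had 3.72 and 3.19 scaled CPM in KO + H-151 libraries, against 186 and 193 in KO libraries. The change of -5.42 ± 0.12 (adjusted p = 1.85e-15) was the largest of the family, and the KO + H-151 mean was measured from 108 reads. The mean of Irf1 was 41.8 ± 3.69 scaled CPM in KO + H-151 and 974 ± 23.5 in KO (SD, n = 2 each), with library values of 44.4 and 39.1 in KO + H-151. Its log2 change was -4.51 ± 0.08 (adjusted p = 6.60e-17). Irf7 thus stood at the lowest level of its 3 groups with H-151, whereas Irf1 did not.

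Irf2 had 73.2 and 77.4 scaled CPM in KO + H-151 libraries, against 437 and 397 in KO libraries (-2.45 ± 0.07, adjusted p = 6.95e-14). For Irf9 the values were 38.5 and 41.4 scaled CPM in KO + H-151, against 199.6 and 201 in KO (-2.30 ± 0.07, adjusted p = 2.49e-13). Irf5 had 18.7 and 21.5 scaled CPM in KO + H-151 libraries, against 72.2 and 74.01 in KO libraries (-1.82 ± 0.12, adjusted p = 4.58e-09). For all 5 of these genes, each KO + H-151 library lay below each KO library; 69.2% of all genes tested were separated in this comparison. Irf3 had 41.7 and 46.8 scaled CPM in KO + H-151 libraries, against 40.8 and 37.2 in KO libraries, with no overlap. Its difference of 0.18 ± 0.09 had a 95% interval of -0.02 to 0.38 (adjusted p = 0.149), and it passed under 2 other scalings of the libraries, given below.

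Irf8 had 17.8 and 19.2 scaled CPM in KO + H-151 libraries, against 7.14 and 8.01 in KO libraries. Both KO + H-151 libraries lay above both KO libraries, and 69.2% of all genes tested were separated in this comparison. Irf8 rose by 1.19 ± 0.14 (adjusted p = 5.24e-06), a ratio of means of 2.44, opposite in direction to the other 5 members that changed. The values rest on 579 reads in KO + H-151 and 176 reads in KO.

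Macrophage markers moved with Irf8. All 16 of 16 macrophage markers rose in KO + H-151 against KO, by 0.52 (Ptprc) to 1.54 (Csf1r), with a median of 1.15. The share over all genes tested was 19.4%. Their summed level was 4337 and 3561 scaled CPM in KO + H-151 libraries, 1738 and 1735 in KO libraries and 1634 and 1399 in control libraries. Irf8 was equal to 0.410% and 0.539% of that sum in KO + H-151 libraries, 0.411% and 0.462% in KO libraries and 0.505% and 0.598% in control libraries, so the ranges overlapped between KO + H-151 and the other groups. The log2 change of Irf8 in this comparison was above that of 10 markers and below that of 6. In KO + H-151 against control it was above that of 1 marker and below that of 15, and in KO against control above that of 3 and below that of 13. In bulk libraries, more macrophages, more RNA per macrophage and RNA of these genes from other cells cannot be told apart. The part of macrophages in the Irf8 result was not tested. Spi1, the partner of IRF8 in myeloid cells and itself 1 of the 16 markers, had 18.7 and 20.1 scaled CPM in KO + H-151, against 9.06 and 5.88 in KO. Lyz2, the macrophage lysozyme, had 2740.0 and 2199 scaled CPM in KO + H-151, 1042 and 1044 in KO and 995 and 841 in control. Lyz2 made up most of the marker sum in every library, so shares of that sum, those of Irf5 below included, depend mostly on it.

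The 8 fibroblast markers summed to 25726 and 23789 scaled CPM in KO + H-151, 36817 and 38689 in KO and 32144 and 32678 in control, and 4 rose and 4 fell with H-151. Of 9 dendritic and B cell markers, 2 were in the table: Itgax, at 5.36 and 4.44 scaled CPM in KO + H-151 and 1.48 and 2.64 in KO, and H2-Ab1, at 3.92 and 3.13 in KO + H-151 and 6.44 and 4.51 in KO. None of 5 T and NK cell markers was in the table. The table had all 5 endothelial markers, summing to 17.3 to 19.7 scaled CPM in KO + H-151, 10.99 to 12.01 in KO and 16.3 to 18.2 in control. Of the 5, 1 rose and 4 fell in KO against control, against 18.2% and 14.2% of all genes tested. With H-151, 3 rose and 0 fell, against the 19.4% and 21.4% given below. Pecam1 changed by 1.97 ± 0.20 with H-151, on 7 reads in KO, and Kdr by -0.47 ± 0.19. Of 6 keratinocyte markers it had Krt10, at 8.32 to 10.3 scaled CPM in KO + H-151, 10.05 to 10.97 in KO and 7.69 to 8.72 in control. A list of IRF8 partners and other factors had 8 genes in the table. With H-151, 2 of them rose (Id2 and Spi1) and 2 fell (Batf2 and Ets2), with a median of 0.13. Id2 and Tcf4, both in that list, are helix-loop-helix genes, and their products are not taken to be partners of IRF8. Of all genes tested, 19.4% rose and 21.4% fell in KO + H-151 against KO, so these counts are not a result about the list. Id2, an inhibitor of helix-loop-helix factors, had 275 and 293 scaled CPM in KO + H-151, against 119 and 113 in KO. Batf2, an interferon-inducible factor, had 0.719 and 0.375 scaled CPM in KO + H-151, 6.01 and 9.79 in KO and 0.142 and 0.072 in control.

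Irf5 is also made in macrophages, and it was set beside the same markers. Its level was equal to 0.431% and 0.604% of the macrophage marker sum in KO + H-151 libraries, 4.15% and 4.27% in KO libraries and 0.732% and 1.12% in control libraries. In KO against control, 4 of the 16 markers rose and 2 fell, with a median of 0.17, against a change of 2.33 for Irf5. Of all genes tested, 18.2% rose and 14.2% fell there. In KO + H-151 against KO all 16 markers rose and Irf5 fell. In KO + H-151 against control Irf5 was higher by 0.52, and 15 of the 16 markers were higher too, with a median of 1.28. There 11.5% of all genes tested were higher. The part of macrophages in the Irf5 results was not tested.

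**Figure D3:**
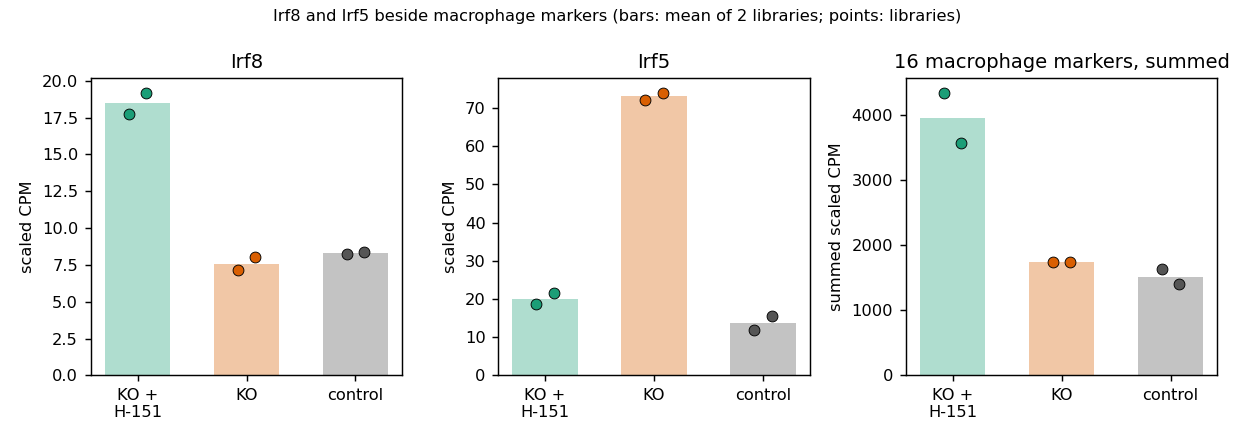
Levels of Irf8 and Irf5 and the summed level of 16 macrophage markers, in scaled CPM, with bars at the mean of 2 libraries and 1 point per library. Lyz2 makes up most of the sum. Irf8 and the marker sum are highest in KO + H-151 (17.8 and 19.2, and 4337 and 3561), whereas Irf5 is highest in KO (72.2 and 74.01).

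The route to IRF3 and the partners of IRF9 fell with H-151 for the most part. Of the 18 genes in the list of the route, Myd88, Irak1 and Traf6 included, 12 fell and 3 rose, with a median of -0.89. The 3 were Mavs, Tbkbp1 and Ticam1, named after their values were seen. Beside the list counts here, 21.4% of all genes tested fell and 19.4% rose. Ifih1 fell to 10.8 and 11.3 scaled CPM in KO + H-151, against 754 and 698 in KO. Tbk1 had 32.5 and 27.5 scaled CPM in KO + H-151, against 51.5 and 54.08 in KO (-0.80 ± 0.11, adjusted p = 2.53e-05). Stat2 had 37.7 and 39.3 scaled CPM in KO + H-151, against 419 and 413 in KO. In the list of ISGF3 partners and receptors 6 of 11 fell and 1 (Ifngr2, named after its value was seen) rose, with a median of -0.56. Ifnb1 had 0 reads in KO + H-151 and 65 in KO. All 14 IRF3 and ISGF3 targets and all 14 IRF1 targets fell, with medians of -7.84 and -3.01. Of 15 corepressors and brakes, 11 fell and 2 rose, with a median of -0.48. Irf2bp2, a corepressor of IRF2, had 145 and 129.5 scaled CPM in KO + H-151, against 87.8 and 103 in KO (0.52 ± 0.09, adjusted p = 0.000343).

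The comparison of KO + H-151 with control places the inhibited KO cells against cells that kept YAP and TAZ, and it shares libraries with both comparisons above. The Irf genes did not stand at a common level relative to control. Irf8, Irf5 and Irf1 were higher in KO + H-151 than in control, Irf7 and Irf9 were lower, and Irf2 and Irf3 did not pass. This made 3 higher and 2 lower of 7, against 11.5% higher and 11.4% lower of all genes tested, 22.9% in either direction. The median over the members was 0.12, and that over all genes 0.00.

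Irf7 had 3.72 and 3.19 scaled CPM in KO + H-151 libraries, against 10.3 and 9.44 in control libraries. Both inhibited libraries lay below both control libraries, at a ratio of means of 0.350 and a log2 change of -1.29 ± 0.12 (adjusted p = 9.06e-07). In this comparison the groups did not overlap for 59% of all genes tested. Irf9 had 38.5 and 41.4 scaled CPM in KO + H-151 libraries, against 66.4 and 67.5 in control libraries (-0.73 ± 0.07, adjusted p = 2.61e-06). Stat2 stood below control too, with a change of -0.37 ± 0.08 (adjusted p = 0.00372). Of the 14 IRF3 and ISGF3 targets, 11 were lower than in control and 0 higher, with a median of -0.95. The shares over all genes tested were 11.4% lower and 11.5% higher.

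Irf1 had 44.4 and 39.1 scaled CPM in KO + H-151 libraries, against 32.9 and 31.3 in control libraries (0.37 ± 0.08, adjusted p = 0.00213). Irf5 had 18.7 and 21.5 scaled CPM in KO + H-151, against 11.96 and 15.6 in control (0.52 ± 0.12, adjusted p = 0.00565), beside the higher macrophage markers given above. Both genes were separated between the groups, as were 59% of all genes tested. Neither call held when the prior variance was fitted with no trend (adjusted p = 0.0542 for Irf1 and 0.0582 for Irf5), and that of Irf5 also without control replicate 1 (0.34 ± 0.13, adjusted p = 0.0970), a value 1 control library decides. Of the 14 IRF1 targets, 5 were higher and 2 lower than in control (median 0.16), against 11.5% and 11.4% of all genes tested.

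Irf2 had 73.2 and 77.4 scaled CPM in KO + H-151 libraries, against 75.2 and 77.04 in control libraries. The difference was -0.02 ± 0.07, with a 95% interval of -0.17 to 0.14 (adjusted p = 0.904), and its sign changed when 1 library was left out. Irf3 differed by 0.12 ± 0.09, with an interval of -0.08 to 0.32 (adjusted p = 0.412). Irf8 was higher in KO + H-151 than in control by 1.06 ± 0.14 (adjusted p = 5.01e-05), and 15 of the 16 macrophage markers were higher too, with a median of 1.28. The marker that did not pass was Cd14. Of all genes tested, 11.5% were higher in that comparison.

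**Figure D4:**
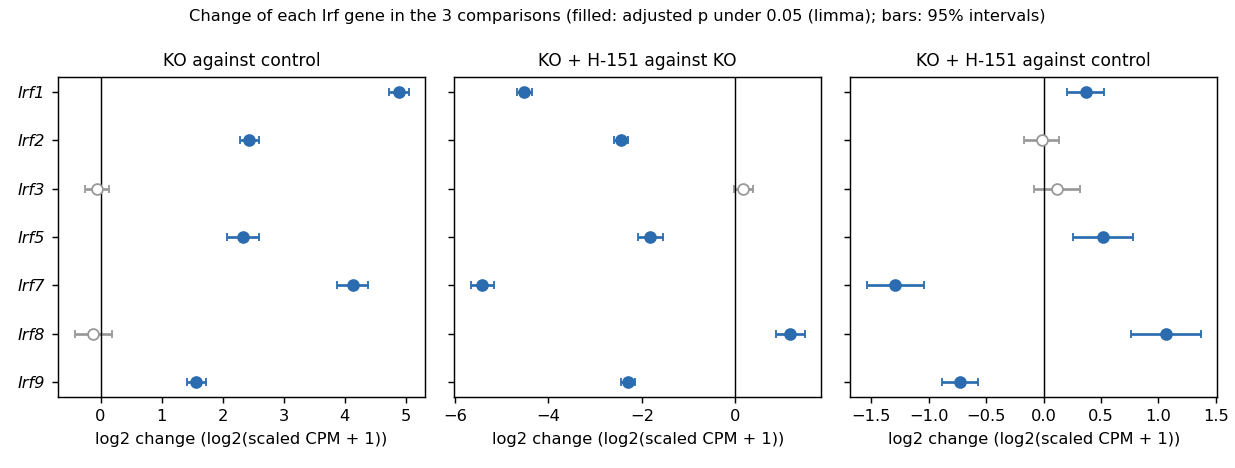
Log2 change of each Irf gene with its 95% interval in the 3 comparisons, on the log2(scaled CPM + 1) scale, filled where the adjusted p is under 0.05. Against control, Irf7 (-1.29) and Irf9 (-0.73) are lower in KO + H-151, Irf8 (1.06), Irf5 (0.52) and Irf1 (0.37) higher.

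The order of the 3 groups therefore differed within the family. Irf1 and Irf5 ran KO, KO + H-151, control from high to low, with each neighbouring pair past the test. Irf7 and Irf9 ran KO, control, KO + H-151, again with each pair past the test. For Irf2, KO was highest and the other 2 groups were not told apart. Irf8 was highest in KO + H-151, with control and KO not told apart, and no neighbouring pair of Irf3 passed.

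Genes with the most similar profile over the 6 libraries were sought among 10175 other genes with a mean of at least 5 scaled CPM. The measure was the Euclidean distance between log2(scaled CPM + 1) values centred on each gene's mean. The nearest genes were picked by these same values, so the likeness of their changes follows from the choice and is only a description. The nearest gene to Irf1 was Calhm6, at a distance of 0.28 log2 units, followed by Tnfsf10 (0.29) and Irgm1 (0.46). Calhm6 averaged 1.73 scaled CPM in KO + H-151, 62.7 in KO and 1.36 in control. Tnfsf10 averaged 0.0655 scaled CPM in KO + H-151, 24.8 in KO and 0 in control. At levels this low the 1 added before the logarithm shrinks the change, so both distances depend on it. Calhm6 had log2 changes of 4.76 in KO against control and -4.56 in KO + H-151 against KO, beside 4.88 and -4.51 for Irf1. Closest to Irf2 were Peli1 (0.15), Mitd1 (0.18) and Slc25a28 (0.22). Peli1 averaged 53.03 scaled CPM in KO + H-151, 271 in KO and 48.97 in control. Closest to Irf7 were Plscr2 (0.39), Irgm2 (0.64) and Gbp3 (0.68). Their log2 differences in KO + H-151 against control were -1.20, -1.19 and -1.23, beside -1.29 for Irf7.

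Irf9 was closest to Col18a1 (0.14), Ccne1 (0.28) and Pax3 (0.28). Col18a1, a collagen gene of basement membranes, averaged 35.9 scaled CPM in KO + H-151, 179 in KO and 63.6 in control. Its changes of 1.48 in KO against control and -2.29 with H-151 compare with 1.57 and -2.30 for Irf9. Irf5 was closest to Tcirg1 (0.34), H2-Q4 (0.34) and Atf3 (0.37). Irf8 was closest to Plau (0.12), which encodes urokinase, then to Prxl2a (0.14) and Gstm1 (0.18), a glutathione transferase. None of these 3 is among the macrophage markers examined. Plau averaged 28.7 scaled CPM in KO + H-151, 12.1 in KO and 13.97 in control. Irf3, which did not pass in any comparison, was closest to Mrpl19 (0.04), Alg11 (0.06) and Nprl2 (0.07). Values were centred but not scaled, so genes that change little lie close to each other. Distances of different members are therefore not comparable.

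Several members overlap other annotated genes, and the strand setting of the counting is not given in the sources used here. The end of Irf5 overlaps the end of Tnpo3 on the opposite strand by 1045 bases. Tnpo3 had 119 and 119 scaled CPM in KO + H-151, 128 and 130.5 in KO and 119 and 120.0 in control, and none of its comparisons passed. Irf7 shares 45 bases with Phrf1 at its end, on the opposite strand, and Phrf1 had 69.3 and 78.7 scaled CPM in KO + H-151, 61.4 and 50.6 in KO and 71.6 and 77.3 in control. The start of Irf3 overlaps Bcl2l12 by 1065 bases, and Bcl2l12 stayed between 3.74 and 6.55 scaled CPM. The start of Irf9 overlaps Rnf31 by 123 bases on the same strand, and Rnf31 had 6.86 and 10.1 scaled CPM in KO + H-151, 39.97 and 38.5 in KO and 9.19 and 8.65 in control. Rnf31 was thus also highest in KO, and its part in the Irf9 counts was not tested. Irf8 lies within Gm20388, a longer model on the same strand that has no row of its own.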

How the data were processed

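Tags from transcript ends were sequenced (QuantSeq), per the labels' protocols. The submitters' processing notes list mm10, featureCounts, edgeR and STAR 2.5.3a. Annotation, strand setting and filters are not given in the sources used here. The deposited table holds a scaled signal per gene and library, named CPM by the authors. Column sums differ, from 955838 to 1083568, so values are called scaled CPM, and the plan for CPM was kept. All values (100%) were whole multiples of 1 step per library within 0.0006, which gave whole reads.

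Genes with at least 1 scaled CPM in 2 libraries (13648; 58 were not tested) were fitted as log2(scaled CPM + 1) with limma 3.58.1 in R 4.3.3, 1 mean per group, a variance trend, leaving 3 residual degrees of freedom, or 15.7 with the moderated variance. The Benjamini-Hochberg adjustment covered all genes tested. The procedure was tested on simulated data. The alternatives are in the closing section, and edgeR 4.0.16 and DESeq2 1.42.0 used the recovered reads.

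The members and gene lists were chosen with earlier results of these data known, so list counts are descriptions. Named genes are all members, up to 4 genes per list (the 3 with the smallest p in KO against control and the most abundant), a fixed list of 12 genes, and the 3 genes nearest to each member. Overlapping genes and others marked in the text were added after their values were seen. Positions are from GENCODE M21 on GRCm38, the build of mm10. Promoters are from RefSeq. Values of some genes in the lists are not reported here.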

Additional observations from a re-analysis of the deposited data

How the results depend on the processing

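Each of 21 member changes was recomputed under 19 alternatives: pseudocounts of 0.25 and 4, no filter, a stricter filter (mean scaled CPM of 10), median, quantile and total-count scaling, only the libraries compared, no variance trend, a replicate block, a crossed replicate block, edgeR, DESeq2 and each library left out. Of these 399 values, 391 kept their direction and their side of the threshold. The 3 that reversed had not passed: Irf2 in KO + H-151 against control, 0.0012 without control replicate 2 and 0.024 without KO + H-151 replicate 1 (-0.056 to 0.024 over the libraries left out), and Irf3 in KO against control, 0.0090 without KO replicate 2 (-0.12 to 0.0090). The 3 lost calls are those of Irf1 and Irf5 against control given above. The count of Irf genes higher in KO + H-151 than in control was therefore 1 without a variance trend. It was also 1 with a 2-fold minimum change, which left 1 lower, against 3 and 2. In KO + H-151 against KO, 2 were higher, against 1, under quantile and total-count scaling, where Irf3 passed (0.27 and 0.35, adjusted p = 0.0336 and 0.00614). Total-count scaling moved the median of all genes from -0.01 to -0.16 in KO against control and from 0.02 to 0.18 in KO + H-151 against KO, and the share of higher calls from 56.2% to 29.9% and from 47.5% to 71.2%. Quantile normalization moved that share to 39.1% and 61.9%.

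Replicate numbers are shared by the labels. Correlations of the deviations of same-numbered libraries were -0.07 for KO with control and -0.13 for KO + H-151 with KO. For KO + H-151 with control the correlation was 0.15, a weak shared deviation. The macrophage marker sum was higher in replicate 1 of both those groups, at 4337 against 3561 in KO + H-151 and 1634 against 1399 in control. With the replicate block, 5 Irf genes were higher and 0 lower in KO against control, 1 higher and 5 lower in KO + H-151 against KO, and 3 higher and 2 lower in KO + H-151 against control, as without it. The crossed replicate block, chosen after seeing the data, gave 2891 genes higher and 2431 lower in KO against control, against 2483 and 1938. In that comparison edgeR called 2423 higher and 1851 lower on the recovered reads and DESeq2 2065 and 1217; 1266 were lower with a mean of 10, and 1165 to 1252 when 1 library of either group was left out. With 2 libraries per group, intervals rest on few degrees of freedom, and Irf7 in KO + H-151 on 108 reads.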
